A study of Mus musculus with 8 samples.

Results

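The 10 core circadian clock genes Arntl, Clock, Per1, Per2, Per3, Cry1, Cry2, Nr1d1, Nr1d2 and Dbp were chosen by symbol out of 45706 genes and were compared between small intestine (SI) and colon (COL). All 10 were found in the tables and all 10 passed the filter on low counts. RNA-Seq had been performed on crypts freshly isolated with EDTA from wild-type C57BL/6N mice for which no treatment is named, and whose age and time of day at collection are not given in the sources used here. Each of 4 donor mice gave 1 SI and 1 COL library, named here SI1 to SI4 and COL1 to COL4 after the replicate number, so that libraries with the same number came from the same animal and the comparison was paired by mouse. Replicate 4 came from the animal that the labels number as donor mouse 5.

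Mammalian cells keep time through a transcriptional feedback loop. BMAL1 (the product of Arntl) and CLOCK form a heterodimer that binds E-boxes and activates the Per and Cry genes, whose proteins return to the nucleus and repress that heterodimer. The same heterodimer activates Nr1d1 and Nr1d2, which encode the REV-ERB receptors that repress Arntl through elements shared with the ROR receptors, and it activates Dbp, a PAR bZIP transcription factor that acts through D-boxes. Arntl RNA therefore peaks at a different time of day than Dbp and Per RNA, and the gut epithelium is known to carry such a clock.

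The promoter letters of 5 members are shown because these genes differ in which clock motifs lie just upstream of their start, and because Arntl on one side and Per1 and Per3 on the other ran in opposite directions among the mice. Any link between the motifs and these directions was not tested. The sequences are the 250 bases before the RefSeq start of the GRCm38.p6 assembly, 5′ to 3′ on the strand of the gene, with matches to a clock motif in capitals. The Arntl stretch is chr7:113207215-113207464 on the plus strand, that of Per1 is chr11:69098699-69098948 on the plus strand, that of Per3 is chr4:151044666-151044915 on the minus strand, that of Cry1 is chr10:85185055-85185304 on the minus strand, and that of Nr1d1 is chr11:98775378-98775627 on the minus strand.
Arntl: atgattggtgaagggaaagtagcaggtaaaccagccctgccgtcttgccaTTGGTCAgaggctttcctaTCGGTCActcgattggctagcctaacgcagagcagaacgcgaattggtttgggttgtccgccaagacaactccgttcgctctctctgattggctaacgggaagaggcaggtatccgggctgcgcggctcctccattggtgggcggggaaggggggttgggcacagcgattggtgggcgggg
Per1: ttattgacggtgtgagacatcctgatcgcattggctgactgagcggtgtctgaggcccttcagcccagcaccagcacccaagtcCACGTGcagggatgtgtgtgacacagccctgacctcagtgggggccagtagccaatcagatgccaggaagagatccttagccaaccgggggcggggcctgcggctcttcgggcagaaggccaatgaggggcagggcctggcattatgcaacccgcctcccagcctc
Per3: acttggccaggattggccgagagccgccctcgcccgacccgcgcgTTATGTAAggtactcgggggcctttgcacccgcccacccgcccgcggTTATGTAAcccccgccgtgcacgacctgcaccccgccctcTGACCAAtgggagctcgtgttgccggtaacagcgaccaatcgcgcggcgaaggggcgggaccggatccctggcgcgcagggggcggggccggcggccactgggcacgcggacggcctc
Cry1: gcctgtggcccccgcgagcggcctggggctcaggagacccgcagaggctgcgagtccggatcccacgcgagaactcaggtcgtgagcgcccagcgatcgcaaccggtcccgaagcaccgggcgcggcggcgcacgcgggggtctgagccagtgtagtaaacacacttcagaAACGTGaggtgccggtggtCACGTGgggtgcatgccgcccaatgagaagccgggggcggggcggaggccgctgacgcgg
Nr1d1: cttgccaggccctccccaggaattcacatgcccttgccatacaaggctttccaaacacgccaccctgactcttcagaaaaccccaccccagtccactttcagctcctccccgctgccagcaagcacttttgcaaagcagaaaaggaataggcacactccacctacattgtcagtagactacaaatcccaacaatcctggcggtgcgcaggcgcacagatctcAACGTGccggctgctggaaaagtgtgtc
Both strands were searched over windows of 250 bases before to 50 bases after each start. The letters sought were the E-box CACGTG, its variant CACGTT, the D-box TTANGTAA and, for the ROR/REV-ERB element, the pattern TNGGTCA. N stands for any base, so TNGGTCA is looser than that element, and its matches are called ROR/REV-ERB matches here. No match overlapped another in the stretches printed. The capitals in Arntl are 2 ROR/REV-ERB matches, TTGGTCA at -200 and TCGGTCA at -181 from the start, and those in Per1 are an E-box at -166. Those in Per3 are 2 D-boxes at -205 and -158, followed by a ROR/REV-ERB match on the other strand at -118, printed as TGACCAA. Cry1 shows an E-box at -60 and an E-box variant at -79, and Nr1d1 an E-box variant at -28. Of 32851 RefSeq windows of this length, 7.15% held the E-box, 4.68% the variant, 2.32% the D-box and 11% the TNGGTCA pattern. A window was found for 9 of the 10 members, and the table holds none for Per2. The windows of Clock, Nr1d2 and Dbp and the window of another Per1 start held none of these letters. The window of Cry2 held 1 E-box variant and 1 ROR/REV-ERB match. The window of another Arntl start held the same 2 ROR/REV-ERB matches and 1 more, TAGGTCA, at 31 from that start. This match lies outside the stretch printed. Such matches describe letters and not binding.

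Total counts per library ranged from 15969428 to 32908060, and counts of the 10 members from 4 (Dbp in SI1) to 6624 (Nr1d1 in SI4). All 7 SI markers were higher in SI and all 5 COL markers that could be tested were higher in COL. The sex labels went against the reads in all 8 libraries. In the mice labelled female (mice 1 and 4) 4 Y-linked genes summed to 87.7 to 129 CPM (counts scaled to a common library size after TMM normalisation) and Xist did not exceed 0.381 CPM, whereas in the mice labelled male (mice 2 and 3) the Y-linked sum did not exceed 0.302 CPM and Xist lay between 89.5 and 478 CPM. The sexes are therefore named below only as labelled. The share of counts from mitochondrially encoded genes ranged from 4.84% to 28.3% in SI and from 4.83% to 50.8% in COL. The 6 T cell markers were all higher in SI, where their summed level was 104 to 384.5 CPM against 13.6 to 61.9 CPM in COL, with no marker at 0 in any library, and the part of such cells in the results below was not tested. Fewer cells of a type and less RNA per cell cannot be told apart in these bulk libraries.

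Per2 and Nr1d1 were higher in SI than in COL, by 2.62-fold and 4.56-fold, and the other 8 members did not pass the test. With edgeR's quasi-likelihood test, the donor mouse as a block and Benjamini-Hochberg adjustment over the 14491 genes tested, 2 of the 10 members thus differed between the tissues at an adjusted p under 0.05, against 28.1% of all genes. Both were higher in SI, as were 15.3% of all genes, and none was higher in COL, as were 12.8%. The share of members called was therefore no larger than that of genes at large. Their median log2 fold change was 0.57 (SI over COL), next to -0.08 over all genes tested. The CPM ranges of the 2 tissues did not overlap for 1 member, Nr1d1, and for 33.5% of all genes.

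**Figure D1:**
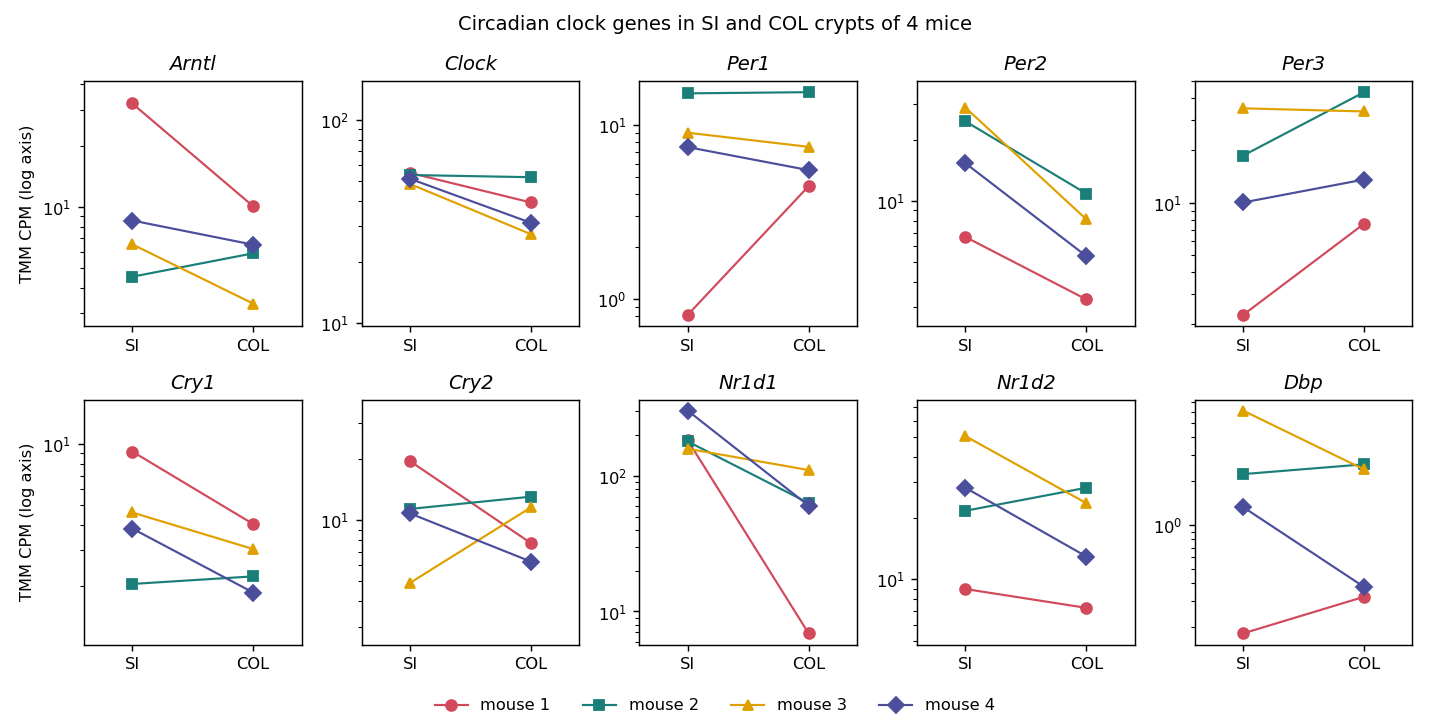
Normalised levels of the 10 clock genes (TMM CPM, log axis, a separate range in each panel) in SI and COL, each point 1 library and each line 1 mouse. Mouse 1 (red circles) lies lowest in both tissues for Per1, Per2, Per3, Nr1d2 and Dbp and highest in both for Arntl and Cry1, and all 4 lines fall from SI to COL for Clock, Per2 and Nr1d1.

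Among the positive arm, Arntl (chr7:113207465-113314126, plus strand) encodes BMAL1. Its level was 32.2, 4.53, 6.54 and 8.56 CPM in SI1 to SI4 and 10.1, 5.90, 3.34 and 6.51 CPM in COL1 to COL4. SI1 stood far above the other SI libraries, COL1 was the highest COL library, and the tissues overlapped. The log2 fold change of Arntl was 0.68 (SE 0.40, adjusted p = 0.241, edgeR), positive in 3 of 4 mice, and -0.06 when libraries were scaled by their total alone. Under that scaling the median of all genes tested stood at -0.81. Clock (chr5:76209868-76304792, minus strand), the partner of BMAL1, was the least variable member in SI. It reached 54.9, 53.5, 48.4 and 51.3 CPM there and 39.2, 52.2, 27.4 and 31.2 CPM in COL1 to COL4. SI exceeded COL within each of the 4 mice, but by only 0.04 on the log2 scale in mouse 2, and the fold change of 0.52 (SE 0.26, adjusted p = 0.175, edgeR) was -0.22 with scaling by the total alone.

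The Period genes encode the PER proteins, which enter the repressor complex together with the cryptochromes. Per2 (chr1:91415982-91459324, minus strand) was measured at 6.66, 24.7, 28.8 and 15.3 CPM in SI1 to SI4 and at 3.29, 10.9, 8.13 and 5.36 CPM in COL1 to COL4. SI was higher in every mouse, with log2 differences of 1.00 in mouse 1 to 1.82 in mouse 3, although SI1 lay within the range of COL because mouse 1 was lowest in both tissues. The fitted log2 fold change of Per2 was 1.39 (SE 0.30, adjusted p = 0.0085, edgeR with the mouse as a block). This call was lost without mouse 4 (1.26, adjusted p = 0.0736) and with scaling by the total alone (0.66, adjusted p = 0.158), where the median gene stood at -0.81 and Per2 at 1.47 above that median.

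Per1 (chr11:69095217-69109960, plus strand) was 0.815, 15.2, 9.02 and 7.46 CPM in SI1 to SI4 and 4.46, 15.4, 7.49 and 5.51 CPM in COL1 to COL4. Apart from mouse 1 the levels of the tissues were close in each mouse. Its log2 fold change was -0.34 (SE 0.51, adjusted p = 0.655, edgeR) and turned to 0.23 without mouse 1. Per3 (chr4:151003652-151044665, minus strand) was at 2.26, 18.7, 34.9 and 10.03 CPM in SI1 to SI4 and at 7.57, 43.2, 33.5 and 13.6 CPM in COL1 to COL4. Per3 was lower in SI in 3 of 4 mice, by 1.71, 1.21 and 0.44 on the log2 scale in mice 1, 2 and 4, while mouse 3 differed by 0.06 in the other direction. Its fold change of -0.82 (SE 0.35, adjusted p = 0.114, edgeR) passed the threshold with scaling by the total alone (-1.54, adjusted p = 0.0157) and with the mitochondrial share as a covariate (-0.72, adjusted p = 0.0388). With scaling by the total alone Per3 stood at -0.73 relative to the median gene.

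The cryptochromes bind PER and repress the BMAL1 and CLOCK heterodimer directly. Cry1 (chr10:85131700-85185064, minus strand) was low, at 9.20, 2.05, 4.61 and 3.85 CPM in SI1 to SI4 and 4.05, 2.24, 3.05 and 1.86 CPM in COL1 to COL4. Mouse 1 had the highest Cry1 in both tissues, as for Arntl. The log2 fold change of Cry1 was 0.69 (SE 0.44, adjusted p = 0.273, edgeR), positive in 3 of 4 mice, and -0.05 with scaling by the total alone. Cry2 (chr2:92403646-92434043, minus strand) was 19.5, 11.4, 4.92 and 10.8 CPM in SI1 to SI4 and 7.72, 13.1, 11.6 and 6.26 CPM in COL1 to COL4. It was higher in SI in mice 1 and 4 and higher in COL in mice 2 and 3, with a fold change of 0.19 (SE 0.45, adjusted p = 0.788, edgeR) that became -0.54 with scaling by the total alone and -0.20 without mouse 1.

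The REV-ERB receptors repress Arntl. Nr1d1 (chr11:98767932-98775333, minus strand) was the member with the largest tissue difference, at 183, 180, 159 and 303 CPM in SI1 to SI4 and 6.89, 63.1, 111 and 60.4 CPM in COL1 to COL4. Every SI library exceeded every COL library, and the size of the difference varied from 0.52 on the log2 scale in mouse 3 to 4.72 in mouse 1, whose COL library was far below the other 3. The fitted log2 fold change of Nr1d1 was 2.19 (SE 0.64, adjusted p = 0.033, edgeR with the mouse as a block). Without mouse 1 it was 1.46 (adjusted p = 0.0304), and the call was lost without mouse 2 (2.54, adjusted p = 0.0675), without mouse 4 (2.04, adjusted p = 0.0743), without the block (1.78, adjusted p = 0.0507) and with scaling by the total alone (1.49, adjusted p = 0.0778). The exons of Nr1d1 overlap those of Thra on the opposite strand over 8.55% of their length, and since the use of strand in counting is not given, reads there cannot be told apart. Nr1d2 (chr14:18204054-18239127, minus strand) was 8.97, 21.8, 50.6 and 28.2 CPM in SI1 to SI4 and 7.25, 28.2, 23.7 and 13.0 CPM in COL1 to COL4. The tissues overlapped and mouse 1 was again lowest in both, with a log2 fold change of 0.54 (SE 0.33, adjusted p = 0.25, edgeR) that was -0.19 with scaling by the total alone.

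Dbp (chr7:45705088-45710203, plus strand) stands for the output of the loop and was the lowest member. It was counted 4, 37, 120 and 29 times in SI1 to SI4 and 11, 42, 90 and 18 times in COL1 to COL4, which gave 0.181, 2.24, 6.08 and 1.33 CPM in SI and 0.323, 2.61, 2.41 and 0.377 CPM in COL. Mouse 1 was lowest in both tissues, mice 2 and 3 were high in both and SI3 was the highest library of all. Dbp was higher in SI in 2 of 4 mice, with a log2 fold change of 0.61 (SE 0.66, adjusted p = 0.529, edgeR) that was -0.11 with scaling by the total alone. The exons of Dbp overlap those of Sphk2 on the opposite strand over 18% of their length.

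Levels of different members were compared as CPM per kilobase of exon. Nr1d1 was the highest in both tissues, at 67.1 ± 21.3 in SI (SD, n = 4) and 19.6 ± 13.8 in COL (SD, n = 4). In SI its lowest library, 51.6, lay above the highest value of the next member, Nr1d2 (9.35), whereas in COL the ranges of Nr1d1 and Nr1d2 overlapped because COL1 held only 2.24 for Nr1d1. Nr1d2 and then Clock followed in both tissues, and Dbp came last in both at 0.821 ± 0.855 in SI and 0.478 ± 0.418 in COL (SD, n = 4 each). Each neighbour below Nr1d1 in the order overlapped the next in range, so that the order of Per2, Cry2, Arntl, Per3, Cry1 and Per1 within SI was not separated by these libraries. Clock exceeded Arntl in 7 of 8 libraries on this scale, and the exception was SI1, where their log2 ratio was -0.10.

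**Figure D2:**
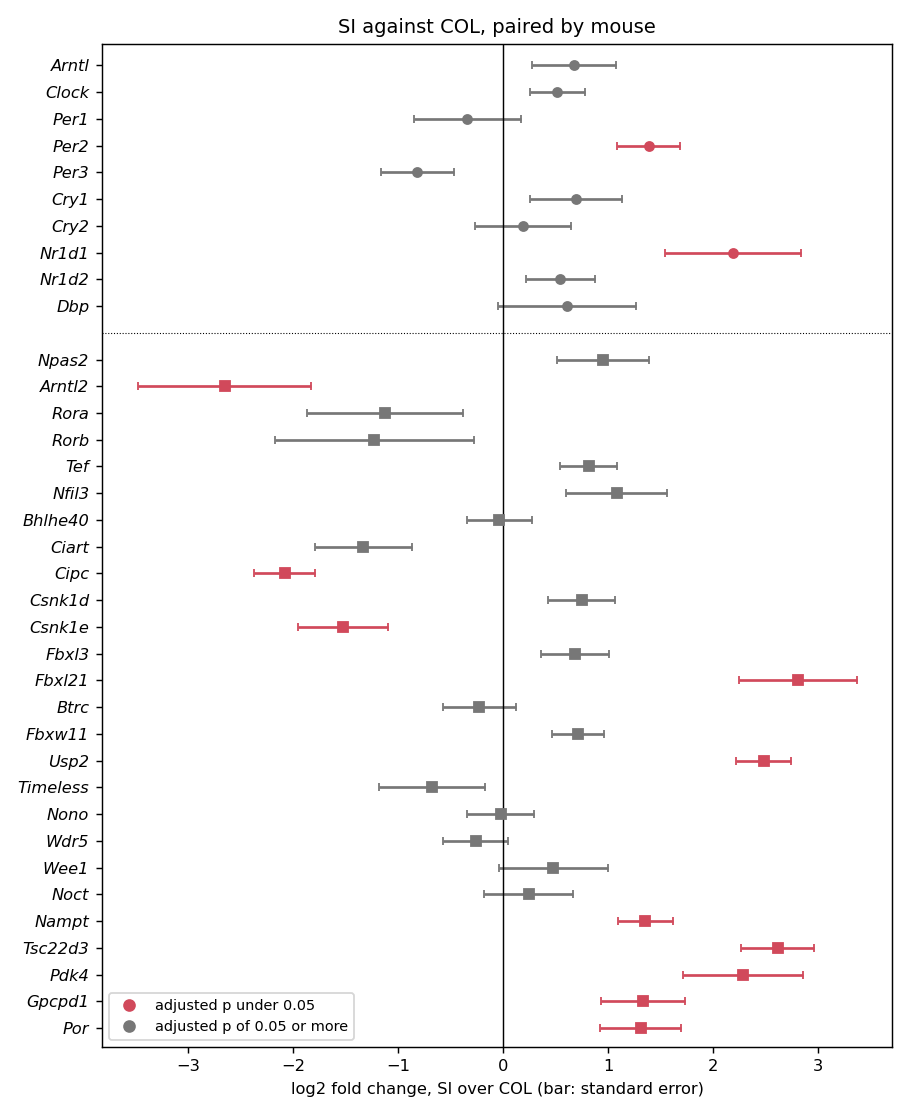
Log2 fold changes between SI and COL (points, with bars of 1 standard error) from the fit paired by mouse, for the 10 members above the dotted line and 26 other clock genes below it. Red marks an adjusted p under 0.05, and Per2 and Nr1d1 are the members past it. With scaling by the total alone the points of Arntl, Clock, Cry1, Cry2, Nr1d2 and Dbp move to the other side of 0, while the median gene stands at -0.81.

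For the median member, the differences between mice made up a larger share of the spread than for the median gene. The donor mouse accounted for a median of 67.1% of the sum of squares of the members' log2 CPM, against 28.4% over all genes tested and 26.7% over the other clock genes. It was 86.9% for Dbp, 83.4% for Per3, 78.2% for Nr1d2, 75.8% for Per1 and 69.8% for Arntl, and 24.8% for Nr1d1 and 29.3% for Cry2. Within SI the members had a median SD of 0.99 in log2 CPM against 0.50 over all genes, and within COL one of 0.76 against 0.56.

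Tested across all genes, these differences did not pass the adjustment. The F test of the 3 donor mouse terms (edgeR's quasi-likelihood test, tissue in the model, Benjamini-Hochberg adjustment) called 0 of the 10 members and 5 of 14491 genes (0.0345%), of which 4 were the Y-linked genes Ddx3y, Eif2s3y, Kdm5d and Uty, and the other was Cyp2c29. An unadjusted p under 0.05 was reached by 6 of the 10 members and by 5.89% of all genes. Those members were Per3 (F = 13.6), Per2 (F = 7.19), Nr1d2 (F = 7.04), Dbp (F = 6.54), Arntl (F = 5.95) and Per1 (F = 4.49), and the adjusted p of each was 0.842 (edgeR). DESeq2 called 2 members, Per3 (adjusted p = 0.00191) and Dbp (adjusted p = 0.0411), among 141 genes. Without the filter on low counts edgeR called 2 members, Per3 (adjusted p = 5.47e-05) and Arntl (adjusted p = 0.0171), among 368 genes. Without mouse 1 the number of members with an unadjusted p under 0.05 fell from 6 to 3, which were Per1, Per3 and Dbp, while the share of all genes rose from 5.89% to 13%.

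The order of the mice was shared between the tissues for several members. Mouse 1 was singled out here after its values were seen. It had the lowest level in both SI and COL for 5 of the 10 members, Per1, Per2, Per3, Nr1d2 and Dbp, and for 5.33% of all genes tested. It had the highest level in both tissues for 2 members, Arntl and Cry1, and for 3.29% of all genes. Whichever the mouse, the lowest was the same in SI and COL for 6 of 10 members against 28.4% of genes, and the highest was the same for 3 of 10 members against 33% of genes. Nr1d1 was at its lowest in COL1, while SI1 lay within the range of the other SI libraries, so that the receptor followed the other members in COL more than in SI. Cry2 was highest in SI1 and second lowest in COL1.

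**Figure D3:**
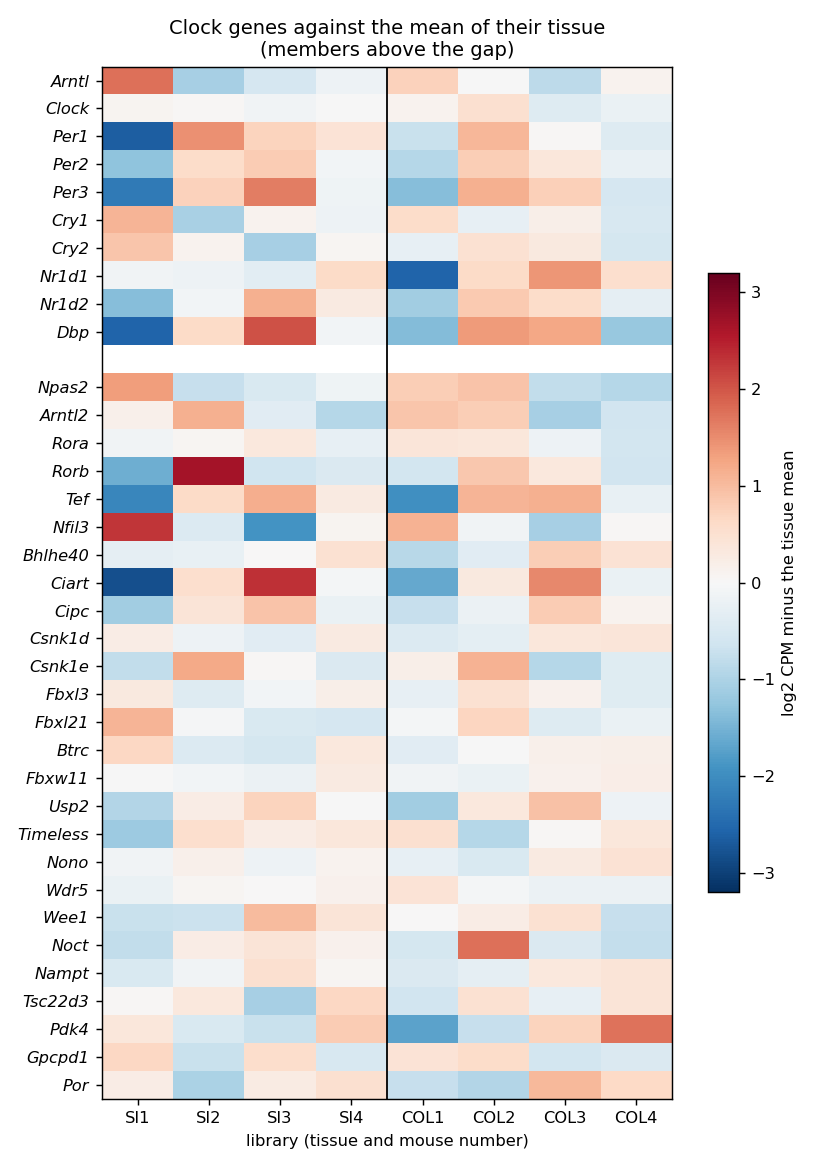
Log2 CPM of the 10 members (above the gap) and 26 other clock genes in each library after the mean of the 4 libraries of the tissue was taken off (red above the mean, blue below). The columns SI1 and COL1 of mouse 1 are blue for Per1, Per2, Per3, Nr1d2 and Dbp and red for Arntl and Cry1, and Tef, Ciart and Nfil3 below the gap show the same columns apart.

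Several of the marker lists and the mitochondrial share of mouse 1 were set beside these levels. The summed level of 6 fibroblast markers was lowest in mouse 1 in both tissues, at 0.272 CPM in SI1 against 0.687 to 5.50 CPM in the other SI libraries and 1.203 CPM in COL1 against 2.81 to 6.78 CPM in the other COL libraries. Of the 4 fibroblast markers that passed the filter, Col1a2, Col3a1 and Dcn were lowest in mouse 1 in both tissues, Col1a2 and Dcn were at 0 in SI1, and Lum was at 0 in 7 of 8 libraries. Col1a1 was lowest in mouse 1 in neither tissue, at 0.0453 CPM in SI1 against 0 in SI3 and SI4 and 0.763 CPM in COL1 against 0.419 CPM in COL4. Pdgfra, under the filter, was at 0.181 CPM in SI1 and at 0 in SI3, SI4 and COL1. These levels lie near the floor, since the highest count of a fibroblast marker in SI1 was 4 (Pdgfra). The mitochondrial share of mouse 1 was the lowest of SI, 4.84%, and the second highest of COL, 26.9%. The summed level of 6 proliferation genes was the lowest of SI in SI1 (92.5 CPM against 257 to 439 CPM) and the highest of COL in COL1 (553.5 CPM against 305 to 455 CPM). The small intestine markers summed to 39170 CPM in SI1, against 18540 to 37080 CPM in the other SI libraries. Among these markers Lyz1 was lowest in SI1, at 61.3 CPM against 401 to 700 CPM. The 6 T cell markers summed to the highest value of SI in SI1 (384.5 CPM) and to 19.0 CPM in COL1, the second highest there. The 10 immediate early and heat shock genes summed to 400 CPM in SI1, within the 210 to 519 CPM of the other SI libraries, and to 163.5 CPM in COL1, within the 118 to 205.5 CPM of the other COL libraries. Their part in the levels of the clock genes was not tested.

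Ratios between 2 members within a library do not depend on how libraries are scaled. The log2 ratio of Arntl to Dbp per kilobase was 6.14, -0.31, -1.23 and 1.36 in SI1 to SI4 and 3.63, -0.15, -0.86 and 2.78 in COL1 to COL4. It ran from mouse 1 through mouse 4 and mouse 2 down to mouse 3 in both tissues, and it spanned more between mice than between the tissues of any 1 mouse. The ratio of Arntl to Per3 followed the same order of mice, with log2 values of 4.18, -1.69, -2.06 and 0.13 in SI1 to SI4 and 0.76, -2.52, -2.97 and -0.71 in COL1 to COL4. This order was not general. The log2 ratio of Arntl to Nr1d1 broke it in SI, at -3.8, -6.60, -5.89 and -6.44 in SI1 to SI4. In COL that ratio kept the order, at -0.74, -4.71, -6.34 and -4.50 in COL1 to COL4. The ratio of Clock to Arntl, with Arntl as the divisor, rose from mouse 1 through mouse 4 and mouse 3 to mouse 2 in both tissues. Only mice 2 and 3 thus traded places against the order above. The ratio of Cry1 to Cry2 kept that order in neither tissue. The Per1 to Per2 ratio instead separated the tissues. Its log2 value was -2.97, -0.64, -1.62 and -0.98 in SI1 to SI4 and 0.50, 0.56, -0.06 and 0.10 in COL1 to COL4, so that every SI library lay below every COL library.

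**Figure D4:**
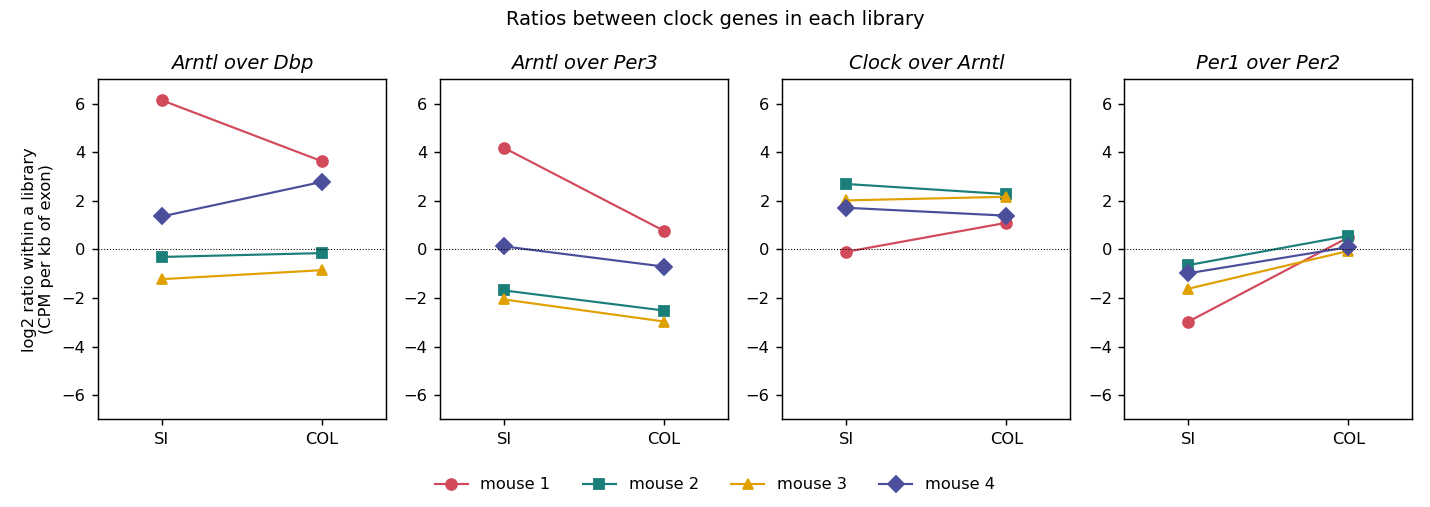
Log2 ratios of pairs of members within each library (CPM per kilobase of exon, the dotted line at a ratio of 1), with 1 line for each mouse. Arntl over Dbp and Arntl over Per3 keep the mice in the order 1, 4, 2, 3 in SI and in COL, and Per1 over Per2 is lower in all 4 SI libraries than in all 4 COL libraries.

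After the tissue mean was taken off, several members moved with Dbp over the 8 libraries and others moved against it. With Dbp, Pearson's r was 0.98 for Per3, 0.96 for Per2, 0.95 for Nr1d2 and 0.83 for Per1, and -0.83 for Arntl and -0.48 for Cry1 (n = 8 libraries from 4 mice, which share animals and are not independent). Clock (r = -0.02), Cry2 (r = -0.33) and Nr1d1 (r = 0.38) were less like Dbp. Genes with a mean log2 CPM of at least 3 numbered 7812, some of the listed clock genes included. Of those outside the lists, the most like Dbp were Cc2d1b (r = 0.96), Dusp11 (r = 0.94), Ssx2ip (r = 0.93), Blnk (r = 0.92) and Pacsin2 (r = 0.92). Those most like Arntl were Galnt7 (r = 0.98), Galnt10 (r = 0.96), Ubqln1 (r = 0.96), Tlnrd1 (r = 0.95) and Ebag9 (r = 0.94). These values are given as a description.

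Other genes of the pathway were listed by role, and 27 of 29 passed the filter. Between the tissues 8 of the 27 were higher in SI and 3 were higher in COL at an adjusted p under 0.05, with a median log2 fold change of 0.68. The share of all genes called was 15.3% towards SI and 12.8% towards COL, and their median was -0.08. Usp2, a deubiquitinase that acts on clock proteins, and Fbxl21, an F-box protein that binds cryptochromes, were higher in SI by 2.48 (adjusted p = 0.000211) and 2.80 (adjusted p = 0.00583) on the log2 scale (edgeR). Arntl2, the paralog of Arntl, was higher in COL (log2 fold change -2.65, adjusted p = 0.0404, edgeR), though at 1.09 ± 0.70 CPM there and 0.188 ± 0.166 CPM in SI (SD, n = 4 each). Cipc, an inhibitor of CLOCK (log2 fold change -2.08), and Csnk1e, a kinase that phosphorylates PER (log2 fold change -1.53), were also higher in COL. Of 7 output genes, 5 were higher in SI, namely Tsc22d3 (2.61), Pdk4 (2.29), Nampt (1.35), Gpcpd1 (1.33) and Por (1.31, all log2 fold changes), and Wee1 and Noct did not pass. Usp2, Fbxl21, Tsc22d3, Nampt and Cipc stayed past the threshold when any 1 mouse was left out, whereas Pdk4, Gpcpd1, Por and Csnk1e lost it without at least 1 mouse and Arntl2 without each of the 4. With scaling by the total alone Nampt, Pdk4, Gpcpd1 and Por lost the threshold and none of these genes changed its direction. Without the block by mouse Csnk1e (adjusted p = 0.0669) and Por (adjusted p = 0.1) lost the threshold.

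Several of these genes separated the mice in the way of Dbp, but not all that differed between mice did. An unadjusted p under 0.05 for the difference between donor mice was reached by 9 of the 27, against 5.89% of all genes, and none passed the adjustment in edgeR's fit with the filter on low counts. With the tissue mean taken off, r with Dbp was 0.94 for Ciart, 0.93 for Tef, 0.91 for Usp2, 0.83 for Cipc and -0.91 for Nfil3. It was 0.69 for Noct, 0.39 for Csnk1e, -0.05 for Por and -0.46 for Npas2, the rest of those 9. DESeq2 called 3 of them, Tef (adjusted p = 2.66e-05), Ciart (adjusted p = 0.000179) and Nfil3 (adjusted p = 0.0072), and edgeR without the filter, where all 29 were tested, called 5, which were Tef, Hlf, Ciart, Nfil3 and Pdk4. Tef, a PAR bZIP factor related to Dbp, had the largest F of these genes (F = 21.6, adjusted p = 0.295, edgeR), with 7.43, 48.6, 71.0 and 38.9 CPM in SI1 to SI4 and 4.55, 38.4, 39.4 and 15.2 CPM in COL1 to COL4. Mouse 1 was lowest in both tissues for Tef, as it was for Ciart, a repressor of the BMAL1 and CLOCK heterodimer, at 0.227 CPM in SI1 against 1.97 to 10.6 CPM in the other SI libraries. Nfil3, which represses through the D-boxes that Dbp activates, ran the other way, with 18.0 CPM in SI1 against 0.913 to 3.85 CPM in the rest of SI and 3.87 CPM in COL1 against 0.802 to 1.80 CPM in the rest of COL. Mouse 1 was lowest in both tissues for 6 of these 27 genes (22.2%, against 5.33% of all genes), Tef, Bhlhe40, Ciart, Cipc, Usp2 and Nampt. It was highest in both for 1, Nfil3 (3.70%, near the 3.29% of all genes). Hlf, the other PAR bZIP factor, lay under the filter, with 0.0906, 4.17, 20.9 and 1.37 CPM in SI1 to SI4 and at most 0.186 CPM in COL.

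The tissue difference was also compared between the mice labelled female and those labelled male, with 2 mice each. No member and no gene (0% of 14491) passed edgeR's quasi-likelihood test of the tissue by sex term after Benjamini-Hochberg adjustment, and an unadjusted p under 0.05 was reached by 2 members and 869 genes. Those members were Nr1d1, whose excess in SI was larger in the mice labelled female by 2.51 on the log2 scale (SE 0.92, adjusted p = 0.776, edgeR), and Cry2 (1.78, SE 0.69, adjusted p = 0.776, edgeR). Mouse 1 was one of the 2 mice labelled female, so that the sex term and the values of mouse 1 cannot be told apart for Nr1d1.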

How the data were processed

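RNA-Seq of crypts from 4 SI and 4 COL samples was analysed from the tables of gene counts that the authors deposited, which hold whole, not normalised counts per Ensembl gene with 1 column per library. Per the labels, reads were trimmed with Trimmomatic 0.36 and aligned with STAR 2.5.2b, and the builds mm9 and mm10 are both named; which annotation release was used, and whether counting respected strand, is not given in the sources used here. All columns were mapped to a sample (0 left out). Gene symbols and positions come from GENCODE vM21, which held 45143 of 45706 identifiers (563 had no match).

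Genes were filtered with filterByExpr, scaled by TMM and tested with edgeR 4.0.16 (quasi-likelihood test, Benjamini-Hochberg adjustment, threshold 0.05, R 4.3.3) with tissue and donor mouse in the model. DESeq2 1.42.0 and limma-voom 3.58.1 were alternatives. The pairing comes from the labels, which name the donor of every library. The deviations of SI and COL from their tissue means correlated at -0.24, 0.39, -0.08 and 0.33 across genes in mice 1 to 4. SI1 was closer to COL4 (0.27) and COL3 (0.26) than to COL1, and SI3 was closer to COL1 (0.16) than to COL3. The Y-linked levels matched within each number, but they only set mice 1 and 4 apart from mice 2 and 3. The pairing therefore rests on the labels. The log2 CPM values used a prior count of 2. The members and gene lists were chosen with earlier results of these data known. All members were named, as were other clock genes past a threshold and the 5 genes most like Dbp and Arntl. 1 of the other clock genes is counted but not reported here by name. With 4 mice, the p-values of the paired fit rest on how the difference between SI and COL varied among these animals.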

Additional observations from a re-analysis of the deposited data

Results flagged for a closer look

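Noct, an output gene of the clock that encodes a phosphatase, had 1 library far from the others of its tissue. COL2 held 73.7 CPM of Noct against 12.8 to 15.8 CPM in the other 3 COL libraries, and the gap to its nearest neighbour took up 0.881 of the range of log2 CPM, above Dixon's 95% critical value for 4 samples. It was the only such library in 74 groups of 4 examined over the clock genes, and chance flags about 1 group in 20.

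Cry2 moved one way between the tissues in the mice labelled female and the other way in the mice labelled male. The log2 difference, SI minus COL, was 1.33 and 0.78 in mice 1 and 4 and -0.20 and -1.22 in mice 2 and 3, and the interaction was 1.78 (adjusted p = 0.776, edgeR's quasi-likelihood test over all genes), so it did not pass the adjustment. Of 37 clock genes compared in this way, 1 was split by the labelled sex, and the reads went against the sex label in all 8 libraries.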

How the results depend on the processing

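The count of members called between SI and COL was 2 in the paired fit. Without the replicate block it was 1 (Nr1d1 stood at an adjusted p of 0.0507), and the block changed no other call of a member. With the mitochondrial share as a covariate it was 3, with Per3 added, among 4720 genes called. Scaling by the total alone called 1 member, Per3 in place of Per2 and Nr1d1. It called 5125 of 14491 genes, 4018 of them higher in COL and 1107 higher in SI. That scaling moved the median gene to -0.81 and reversed Arntl (-0.063), Clock (-0.22), Cry1 (-0.051), Cry2 (-0.54), Nr1d2 (-0.19) and Dbp (-0.11, all log2). Relative to the median gene these genes stayed positive, from 0.27 for Cry2 to 0.76 for Cry1, and Per3 stood at -0.73. Leaving out 1 mouse gave 0 to 2 members and 2616 to 3690 genes, with 0 members without mouse 4, where the gene count was 2616 against 4072. Leaving out 1 library with tissue alone in the model, which was chosen after seeing the data, gave 0 to 1 members and 3167 to 4480 genes. The log2 fold change ranged from -0.72 to 0.23 for Per1 and from -0.20 to 0.66 for Cry2 without 1 mouse, and from -0.48 to 0.47 for Per1, -0.07 to 0.56 for Cry2 and -0.17 to 1.26 for Dbp without 1 library. Per1 turned positive without SI1, COL2 or mouse 1, Cry2 negative without SI1, mouse 1 or mouse 4, and Dbp negative without SI3.

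For the difference between donor mice, DESeq2 called 2 members and 141 genes and the fit without a filter 2 members and 368 genes, while at least 10 counts in every library (9 members tested) or the mitochondrial covariate called 0 genes in place of 5. Without 1 mouse 0 to 6 genes were called, and 3 to 6 members had an unadjusted p under 0.05, against 1.36% to 13% of all genes (200 to 1926). The number of members with the same highest mouse in both tissues was 5 in place of 3 with scaling by the total alone, against 30.4% of all genes there and 33% before, so that the members moved from below to above the share of all genes. The cause of these changes was not tested. Low counts limit Dbp in mouse 1.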
